A study of Mus musculus with 4 samples.

Results

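H4K16ac, the acetylated form of lysine 16 of histone H4, was mapped at 8 loci named for genes of neural progenitors: Nes, Vim, Fabp7, Msi1, Notch1, Dll1, Hes5 and Cdh2. Members were the called H4K16ac islands that touched a window of 50 kb on either side of a fixed mm9 position near 7 of the genes, or a span of 300 kb for Cdh2. The positions are multiples of 5 kb and were not checked against gene starts on mm9, so distances below are from the position and not from the gene. This took in 25 of 40570 islands called in embryonic stem cells (ESC) and 12 of 48278 called in neural progenitor cells (NPC). An island is a stretch in which the SICER program joined neighbouring windows of enriched ChIP-seq reads. The ESC were undifferentiated cells of 46c, a mouse line with a GFP reporter in the Sox1 gene. The NPC were derived from the same line over 5 days with NB27 and Neuro2 supplements and were sorted for GFP, which marks cells that switch on Sox1. Chromatin of both was cut with micrococcal nuclease and precipitated with the same H4K16ac antibody.

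Each cell type had 1 ChIP library, so no difference below has a replicate check and no p-value was computed. The lists held 17935144 ESC and 24386370 NPC reads inside islands, and the depth of each library outside islands is unknown. A stretch with no island may still carry the mark below the calling threshold. Fewer cells with the mark and less of it per cell cannot be told apart in such bulk samples. The lists hold no expression values, so the cell types were not checked against marker transcripts.

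H4K16ac is found at active genes and enhancers and is laid down in mammals largely by the acetyltransferase MOF. Nestin and vimentin, the products of Nes and Vim, are intermediate filament proteins of neural stem cells, and Cdh2 encodes N-cadherin, the adhesion protein of the neural epithelium. In the Notch pathway a ligand such as Dll1 on one cell binds the receptor Notch1 on its neighbour. The receptor's freed intracellular part then joins the DNA-binding protein RBPJ and switches on repressors such as Hes5, which keep the cell a progenitor.

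Promoter sequences are shown for 3 members whose positions differed in island calls: Vim and Hes5, each inside an ESC island, and Fabp7, outside any. They are the 250 bases before the gene start from RefSeq on build GRCm38.p6, not the mm9 build of the islands, so whether an island covers exactly these bases was not determined. Vim is at chr2:13574061-13574310, Hes5 at chr4:154960673-154960922 and Fabp7 at chr10:57784673-57784922, all on the plus strand. Letters run 5′ to 3′, and capitals mark CpG dinucleotides.
Vim: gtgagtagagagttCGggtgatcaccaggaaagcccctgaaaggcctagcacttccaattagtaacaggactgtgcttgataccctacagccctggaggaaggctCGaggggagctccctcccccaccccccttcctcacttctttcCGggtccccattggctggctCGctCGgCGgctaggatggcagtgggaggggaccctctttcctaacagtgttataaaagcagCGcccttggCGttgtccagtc
Hes5: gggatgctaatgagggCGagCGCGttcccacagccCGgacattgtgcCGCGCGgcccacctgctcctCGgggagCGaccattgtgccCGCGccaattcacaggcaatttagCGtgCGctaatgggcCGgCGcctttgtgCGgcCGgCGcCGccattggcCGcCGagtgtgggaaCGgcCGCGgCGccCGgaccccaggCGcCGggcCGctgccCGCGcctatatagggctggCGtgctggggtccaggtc
Fabp7: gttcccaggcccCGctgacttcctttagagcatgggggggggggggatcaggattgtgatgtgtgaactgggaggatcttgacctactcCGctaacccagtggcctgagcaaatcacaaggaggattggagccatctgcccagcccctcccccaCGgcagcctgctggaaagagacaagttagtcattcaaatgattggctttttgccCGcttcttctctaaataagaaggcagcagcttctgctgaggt
Hes5 had 32 CpG, more than 95.4% of 32851 promoters of this length, for which the median was 6. Vim had 8 and Fabp7 4. The RBPJ motif GTGGGAA, searched on both strands, matched 2 times before Hes5, as TTCCCAC at 226 to 220 bases before the start and as GTGGGAA at 83 to 77 bases. It matched no other member promoter among those of Nes, Vim, Fabp7, Notch1 and Dll1, and 5.42% of all promoters held it.

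All 8 loci had at least 1 ESC island, and 4 had no NPC island. Islands lay in both lists at Vim, Notch1, Dll1 and Hes5, and in ESC alone at Nes, Fabp7, Msi1 and Cdh2. No locus had islands in NPC alone, as had 11.9% of autosomal 100 kb windows and 4.74% of 300 kb windows. Of 24709 windows of 100 kb laid end to end along the autosomes, 17.8% had islands in ESC alone and 44.7% in both, against 3 and 4 of the 7 member windows of that length. Of 300 kb windows, the length of the Cdh2 span, 17.3% had islands in ESC alone. Windows without an NPC island, whatever ESC had, made up 43.4% at 100 kb, so that 3 of 7 was near the share in the genome. Among windows with an ESC island, as all members had, 28.4% at 100 kb and 20.2% at 300 kb had no NPC island. These windows were not centred on genes, so they describe the genome and are no matched control. The absence of NPC islands held only near the positions: with windows of 100 kb on either side, Nes, Fabp7 and Msi1 also had NPC islands. The Cdh2 span was not widened in that setting, so its state could not change. An NPC island lay 18.2 kb to the left of the span.

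**Figure D1:**
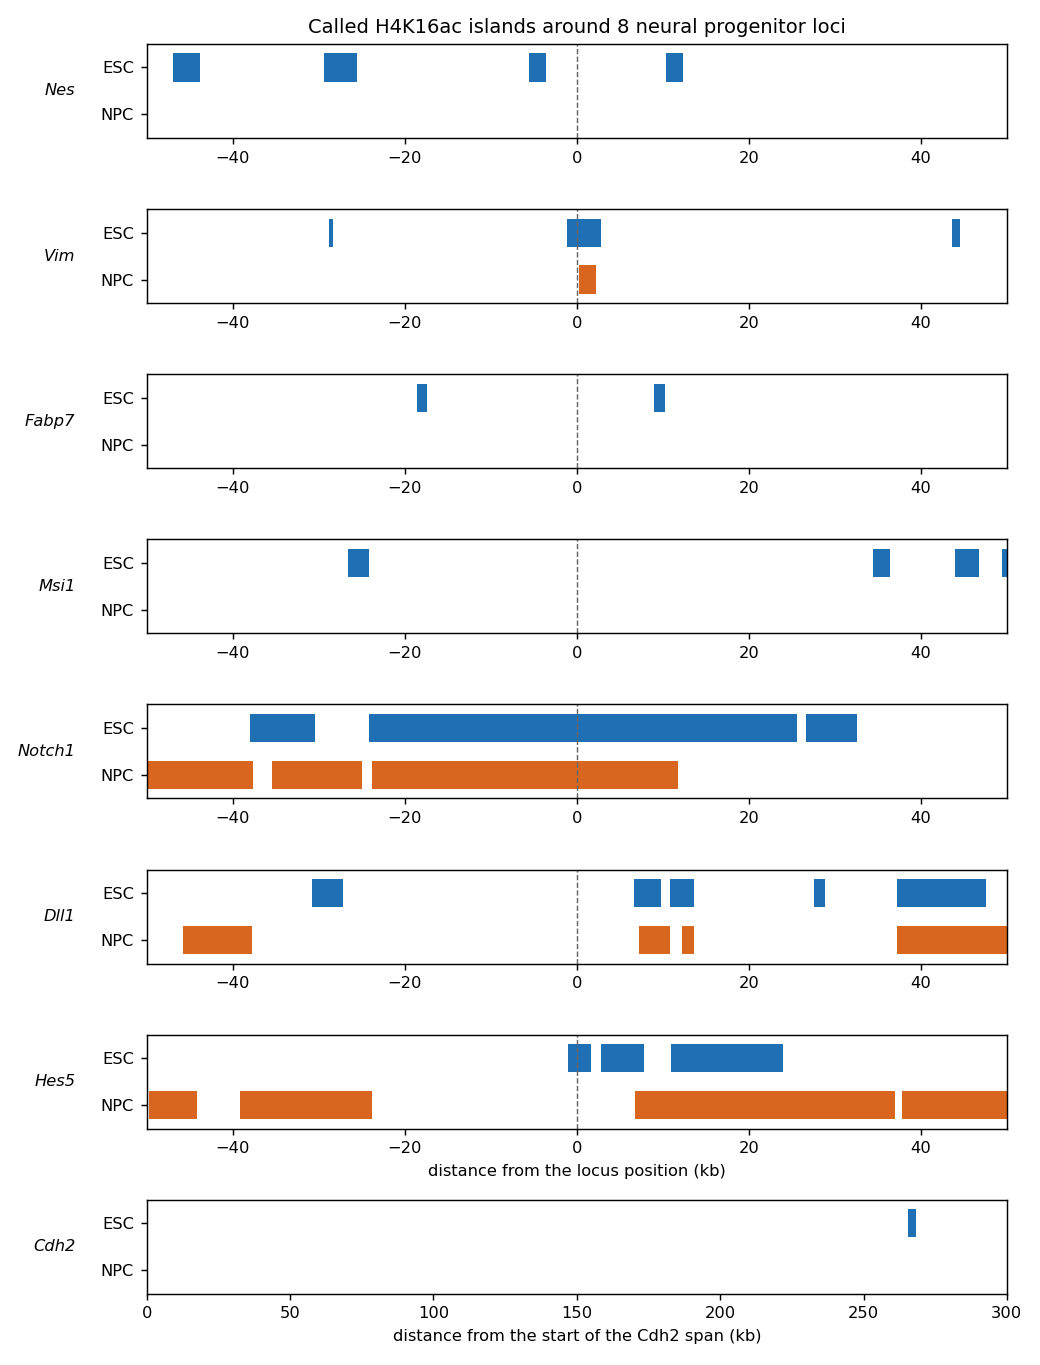
Each bar is a called H4K16ac island in ESC (upper row, blue) or NPC (lower row, orange). The x axis is the distance in kb from the locus position (dashed line) or, for Cdh2, from the start of its span, and bars are clipped at the window edge. The NPC rows of Nes, Fabp7, Msi1 and Cdh2 are empty, and NPC islands at Notch1, Dll1 and Hes5 range from 1.4 to 35.6 kb in width.

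Nes, the nestin gene, lay among 4 ESC islands and had none in NPC. They covered 11 kb of the window with 1050 reads in ESC. The island nearest the position, at chr3:87774401-87776400, was 2 kb wide with 256 reads, a density of 128 reads per kb, and ended 3.6 kb before the position. The widest, at chr3:87750601-87754400, had 306 reads over 3.8 kb, or 80.5 reads per kb. The others held 298 and 190 reads. On GRCm38 the neighbouring protein-coding genes are Crabp2 and Bcan, and to which gene each island belongs was not determined.

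The nearest NPC islands to Nes began 92 kb to the right and ended 56 kb to the left, leaving a stretch of 148 kb without an NPC call. Stretches at least as long made up 51.2% of the autosomal length between the outermost NPC islands. ESC had 7 islands in that stretch. Among 2476 autosomal stretches of 100 to 250 kb between neighbouring NPC islands, the median held 2 ESC islands and 4.44% held at least 7. These stretches were not matched to any locus for length or gene content, so they are no matched control. In windows of 100 kb with 4 or more ESC islands, 4.94% had no NPC island. Nes and Msi1 were both of that kind, but Msi1 only through an island that crossed the window edge. In windows with 3 ESC islands the share was 14.3%. Fabp7 and Cdh2 were of commoner kinds, since 29.9% of 100 kb windows with 2 ESC islands and 50.3% of 300 kb windows with 1 had no NPC island.

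Vim, the vimentin gene, had an island at or next to its position in both cell types, the smaller one in NPC. The ESC island at chr2:13493801-13497800 held the position, with 337 reads over 4 kb. The NPC island at chr2:13495201-13497200 lay wholly inside it, with 160 reads over 2 kb, and began 0.2 kb after the position. Densities were 84.3 (ESC) and 80 (NPC) reads per kb, a log2 NPC over ESC of -0.07 without scaling and -0.52 when scaled to island reads. The reads per 1000000 island reads of the list (RPM) were 18.8 and 6.56, a log2 NPC over ESC of -1.52 (95% interval -1.80 to -1.24). Intervals of this kind are exact Clopper-Pearson intervals of the share of reads and cover counting error only. In these ratios each list's reads come only from its own islands, so ESC and NPC reads can cover different bases. Such a ratio therefore also reflects called width. ESC had another 2 islands near Vim, with 72 reads in 0.4 kb and 188 reads in 1 kb, at 180 and 188 reads per kb. These were the densest ESC members, and neither had an NPC counterpart. The one with 72 reads had the lowest width in the ESC list, and its reads were near the list's lowest count of 60.

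Fabp7 encodes a fatty acid binding protein of radial glia, and its window was the least covered in ESC among those of 100 kb. It had 2 ESC islands of 1.2 kb each and none in NPC. The island at chr10:57486401-57487600 held 179 reads, and that at chr10:57514001-57515200 held 129 reads and lay 9 kb after the position. The nearest NPC island was 57 kb away, and the stretch without an NPC call measured 224.4 kb. It held 2 ESC islands, the median number, which 53.7% of the stretches of 100 to 250 kb reached. Of the autosomal length, 44.2% lay in stretches at least as long.

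Msi1, which encodes the RNA-binding protein Musashi-1, had 4 ESC islands and none in NPC. They held 283, 281, 408 and 191 reads at 118, 141, 146 and 159 reads per kb, each denser than the median ESC island of 93.3. All lay at least 24.2 kb from the position, and 3 of them 34.4 to 50.6 kb after it. The stretch without an NPC call spanned 196.8 kb and held 9 ESC islands. That number was reached in 1.74% of the stretches of 100 to 250 kb, which were not matched to it for length. By length alone the Msi1 stretch was common, since 46.5% of the autosomal length lay in stretches at least as long. The NPC island closest to the position lay 59.2 kb after it and was small, with 83 reads over 1 kb.

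Cdh2 had the sparsest marking of the 8 loci. A single ESC island, at chr18:16965401-16968400, held 240 reads over 3 kb, at 80 reads per kb, and lay 265.4 kb from the start of the span. It covered 1% of the span. The bases from 16681801 to 17193400, 511.6 kb in all, had no NPC call and 3 ESC islands. Of the autosomal length between the outermost NPC islands, 31.1% lay in stretches without an NPC call that were at least as long.

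Most NPC islands of these loci lay in the windows of the Notch pathway genes: those of Notch1, Dll1 and Hes5 held 11 of the 25 ESC islands and 11 of the 12 NPC islands. The windows of the receptor, ligand and target gene differed in how the cell types compared, and their islands were not assigned to genes. At Notch1, covered bases were 63.4 kb in ESC and 58.4 kb in NPC. At Dll1 they were 21.2 and 25.8 kb. At Hes5 they were 20.6 and 63.4 kb. The NPC excess at Dll1 and Hes5 lay in the parts of the windows more than 25 kb from the position.

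At Notch1 the mark lay over most of the window in both cell types but was shifted between them. The ESC island at chr2:26310801-26360600 was wider than 99.9% of its list, with 5086 reads over 49.8 kb. The NPC island at chr2:26311201-26346800 lay inside it, with 2839 reads over 35.6 kb, and was wider than 99.2% of its list. Their left edges differed by 400 bp, whereas the ESC island ran on for 13.8 kb beyond the right edge of the NPC island. Right of that edge, ESC islands covered 19.8 kb of the window and NPC islands 0 kb. Notch1 is on the minus strand in RefSeq, so its start is at its right end. In this region the log2 NPC over ESC was -1.28 (-1.35 to -1.22), with ESC reads from 49.8 kb and NPC reads from 35.6 kb. Densities were 102 (ESC) and 79.7 (NPC) reads per kb.

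To the left of Notch1, where Sec16a is the next protein-coding gene on GRCm38, NPC had the wider islands. From 50 to 25 kb before the position, islands covered 7.6 kb in ESC and 22.8 kb in NPC. The region at chr2:26283401-26310000 joined 1 ESC island of 754 reads with 2 NPC islands of 1943 reads together. With ESC reads from 7.6 kb and NPC reads from 24.4 kb, the log2 was 0.92 (0.80 to 1.05). Density there went the other way, at 99.2 (ESC) and 79.6 (NPC) reads per kb.

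Dll1, the ligand gene, had a pair of islands close to its position in both cell types, each with fewer reads in NPC. The ESC island at chr17:15511601-15514800 had 358 reads and its NPC counterpart at chr17:15512201-15515800 had 243, a log2 of -1.002 (-1.24 to -0.76). The next pair ended at the same base, 15518600, with 430 reads over 2.8 kb in ESC and 114 over 1.4 kb in NPC, a log2 of -2.36 (-2.67 to -2.06). This was the lowest value among member regions, and by density 6.58% of all regions called in both lists lay below it. In this pair the ESC island had 154 reads per kb and the NPC one 81.4, and in the other 112 and 67.5.

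Farther from Dll1 the order was reversed. Islands of both lists began at the same base, 15542201, and the NPC island ran for 28 kb with 2217 reads against 10.4 kb with 784 reads in ESC. The log2 was 1.06 (0.94 to 1.18), the highest among member regions, at 79.2 reads per kb in NPC and 75.4 in ESC. The region lay 37.2 kb from the position, on the side of Fam120b in the GRCm38 gene order. Its NPC island crossed the window edge and ended 65.2 kb from the position, so part of these NPC reads lay outside the window. From 25 to 50 kb after the position, islands covered 11.6 kb in ESC and 12.8 kb in NPC. An NPC island of 528 reads at chr17:15459201-15467200 had no ESC counterpart, and ESC islands of 279 and 159 reads had none in NPC.

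Hes5, the repressor gene downstream of Notch whose promoter held both RBPJ matches, had its position inside an ESC island and outside any NPC island. The ESC island at chr4:154334001-154336600 had 217 reads over 2.6 kb, at 83.5 reads per kb. The nearest NPC island began 6.8 kb after the position. That island, at chr4:154341801-154372000, held 2617 reads over 30.2 kb and overlapped 2 ESC islands with 452 and 1141 reads, a log2 of 0.27 (0.18 to 0.36). Densities in that region were 86.7 reads per kb in NPC and 88.5 in ESC. A further 3 NPC islands with 453, 1145 and 1639 reads had no ESC counterpart. They lay at least 23.8 kb from the position. On GRCm38 Pank4 and Tnfrsf14 are the next protein-coding genes, and islands of this window were not assigned to genes.

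**Figure D2:**
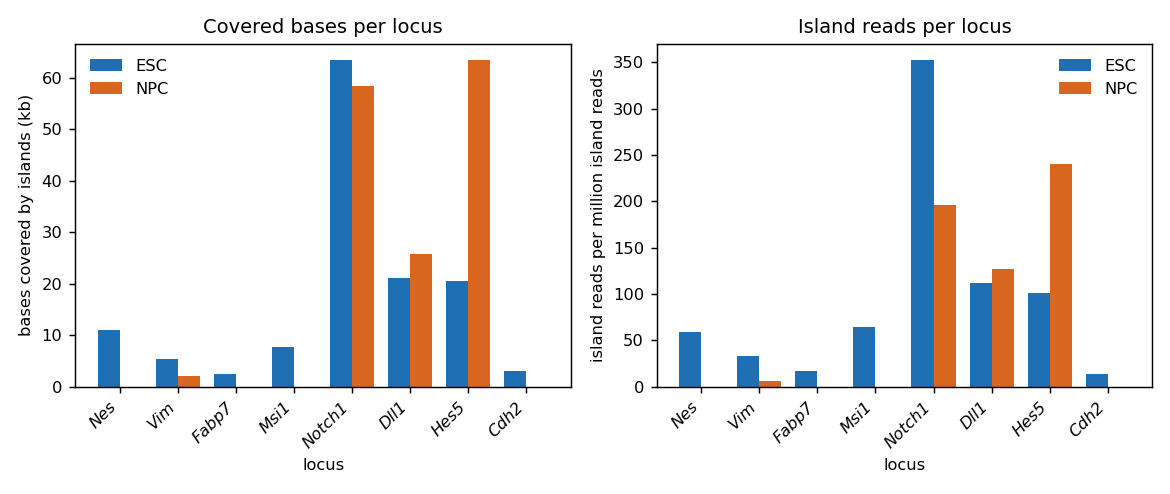
Bars give the bases of each window covered by islands (left, kb) and the reads of its islands as RPM (right), for ESC in blue and NPC in orange, 1 library each. Notch1 has the most ESC reads, at 352 RPM, and Hes5 the most NPC reads, at 240.1 RPM.

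Over the 8 loci, islands covered 134.8 kb in ESC and 149.6 kb in NPC of 1000 kb, from 25 and 12 islands. Covered bases were higher in ESC at 6 loci and higher in NPC at Dll1 and Hes5. Of the autosomal 100 kb windows, 32.7% were covered more in ESC. By covered bases in ESC, Notch1 exceeded 98.9% of those windows, Dll1 87.9%, Hes5 87.5%, Nes 78.5%, Msi1 73.6%, Vim 68.5% and Fabp7 55.7%, and Cdh2 exceeded 35.2% of the 300 kb windows. In NPC Hes5 exceeded 95.9%, Notch1 94.8%, Dll1 81.3% and Vim 49.1%, and the other 4 loci had 0 kb.

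Close to the position, ESC had the greater cover at each of the 7 loci that have one. Within 25 kb on either side, islands covered 4 kb in ESC and 0 in NPC at Nes, 4 and 2 at Vim, 2.4 and 0 at Fabp7, and 0.8 and 0 at Msi1. At Notch1 they covered 49.2 and 35.6 kb, at Dll1 6 and 5 kb, and at Hes5 20.6 and 19.4 kb. The positions are multiples of 5 kb and were not shifted, so the order is not resolved where the covers are close, as at Dll1 and Hes5. Nes, Fabp7 and Msi1 had no NPC island within 50 kb, so any ESC cover there put ESC ahead. Of all autosomal 50 kb windows, 26.9% were covered more in ESC, and 43.8% of those with an island in either list. The NPC excess at Hes5 lay farther out, with 19.8 kb of cover against 0 in ESC from 50 to 25 kb before the position and 24.2 kb against 0 from 25 to 50 kb after it.

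The nearest island was an ESC one at 6 of the 7 positions, and at Notch1 both lists had an island over the position. At Vim and Dll1 the lists differed by less than the 5 kb step of the positions, so their order is not resolved there. ESC distances were 0 kb at Vim, Notch1 and Hes5, 3.6 kb at Nes, 6.6 kb at Dll1, 9 kb at Fabp7 and 24.2 kb at Msi1. NPC distances were 0 kb at Notch1, 0.2 kb at Vim, 6.8 kb at Hes5 and 7.2 kb at Dll1, and 56 to 59.2 kb at Nes, Fabp7 and Msi1. No NPC distance lay between 7.2 and 56 kb. In part this restates the calls, since a window without an NPC island puts the nearest one beyond 50 kb. Of the centres of all 100 kb windows, 53.6% were closer to an ESC island.

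Merging islands that shared a base gave 28 regions: 17 called in ESC only, 4 in NPC only and 7 in both. Over all regions of the lists the shares were 34.7% in ESC only, 44.8% in NPC only and 20.6% in both. Of the 25 ESC islands 8 (32%) overlapped an NPC island, against 39.8% of all ESC islands, and of the 12 NPC islands 8 overlapped an ESC island, against 34.7% of all NPC islands. The overlapped share in ESC followed width. Of member ESC islands over 4 kb wide, 5 of 6 were overlapped, and the exception was the 6 kb island right of Notch1. Of those up to 4 kb, 3 of 19 were overlapped. The same shares over all ESC islands were 68.8% and 23.9%.

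ESC islands of these loci were about as wide as the median of their list, and 9 of 12 NPC islands were wider than theirs. Of the 12 NPC members 11 lay in the Notch1, Dll1 and Hes5 windows, and the 1 at Vim was 2000 bp wide. The median ESC member was 2800 bp wide, with a range from 400 to 49800 bp, against 3000 bp for the list. The median NPC member was 12200 bp wide, with a range from 1400 to 35600 bp, against 4200 bp for the list. Densities of the 12 NPC members lay between 66 and 86.7 reads per kb, whereas the 25 ESC members spread from 75.4 to 188. At least 120 reads per kb were found in 9 of 25 ESC members (36%) and in 0 of 12 NPC members, against 28.4% and 1.57% of the lists. The 17 ESC members without an NPC counterpart had a median of 118 reads per kb and 2000 bp. The 8 with one had medians of 94.8 reads per kb and 6300 bp. The whole ESC list split the same way, with medians of 105 reads per kb and 2200 bp without an NPC overlap. With one, they were 83.5 reads per kb and 5200 bp.

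**Figure D3:**
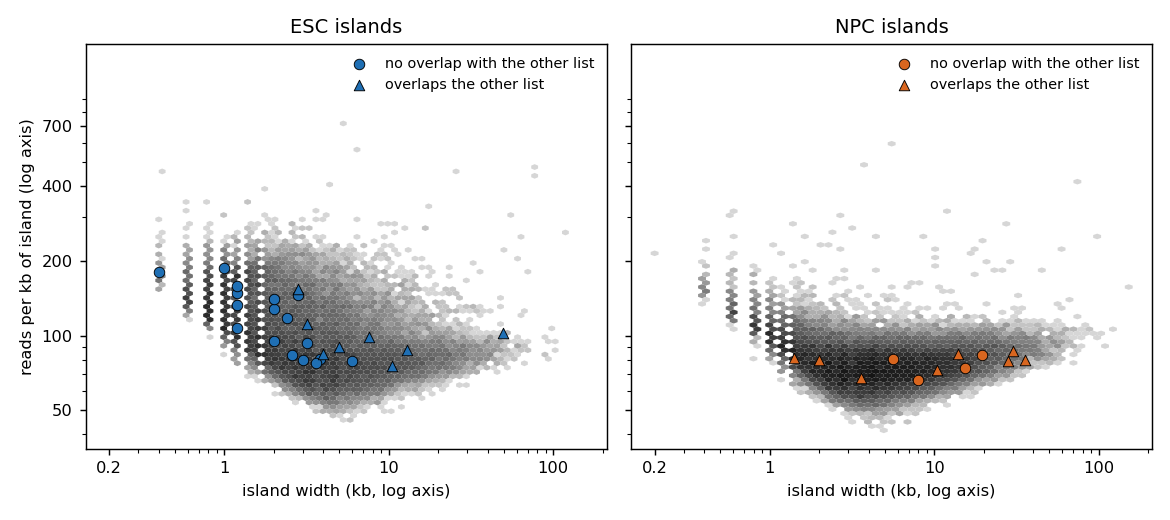
Each point is a member island in ESC (left) or NPC (right), by width in kb and reads per kb, both on log axes. Circles have no overlap with the other list and triangles have one, and grey shading shows all islands of that list (darker for more). ESC members reach 188 reads per kb at narrow widths, and NPC members reach at most 86.7 reads per kb over widths from 1.4 to 35.6 kb.

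In the 7 regions called in both lists, the direction of the read ratio differed between loci, and the density was mostly lower in NPC. The log2 of RPM was below 0 in 4 regions, at Vim, over Notch1 and in the pair near Dll1, and above 0 in 3. Their median was -1.002, against -0.49 over all 14478 such regions, of which 77.9% were below 0. By plain density, without scaling, 6 of 7 regions were below 0, with a median of -0.32. Over all such regions 60.6% were below 0 and the median was -0.07. The exception was the distal Dll1 region at 0.07. With density scaled to island reads, 7 of 7 regions were below 0, and the distal Dll1 region was at -0.37. The median was then -0.76, against -0.51 over all such regions. Summed over the 7 regions, 9342 ESC and 10133 NPC reads gave a log2 of -0.33 (-0.37 to -0.29). That sum rested on Notch1: without it the log2 was 0.17. Scaling by the reads in all regions called in both lists moved each value up by 0.41, which put the sum at 0.086. Under that scaling 7 of 7 regions stayed on their side of 0.

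**Figure D4:**
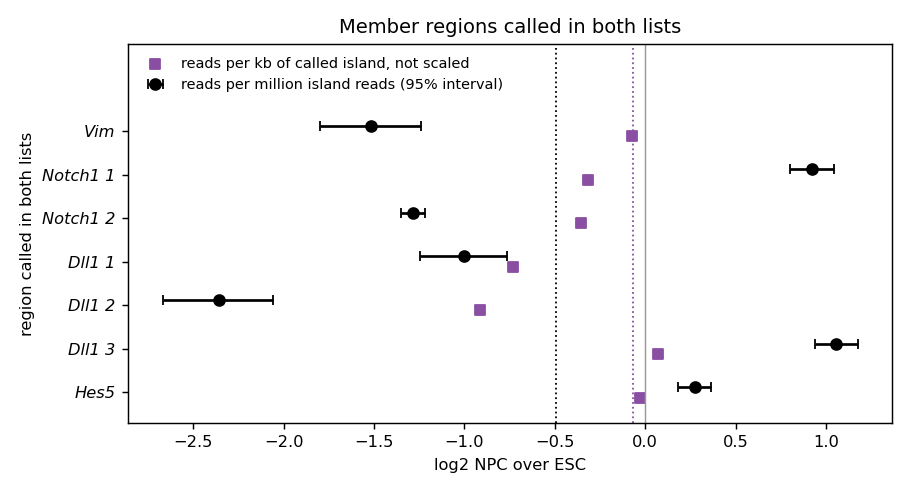
For each member region called in both lists, circles give log2 NPC over ESC of RPM, with the 95% counting interval, and squares give log2 of reads per kb of called island, not scaled. Numbers after Notch1 and Dll1 count regions from left to right, and dotted lines mark the medians over all regions called in both lists, at -0.49 and -0.07. The circles spread from -2.36 to 1.06, and the squares from -0.92 to 0.07.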

How the data were processed

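The submitters' processing notes name SICER 1.1 and Bowtie 0.12.7, along with SAMtools 0.1.7, CASAVA 1.8.2 and bedtools 2.10.1, and build mm9. File names give SICER's settings as 200 bp windows, 600 bp gaps and an FDR of 0.01. The authors deposited, per island, a whole-number count, taken here as raw H4K16ac reads unscaled for depth or input. Removal of duplicates and the use of the MNase input in the calls are not given in the sources used here.

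Starts and ends were each moved by 1 to count from 1, with both bases taken as part of the island. Members, positions and lists were chosen with earlier results of these data known. All 8 loci were named, with the island at or nearest each position and the widest. Covered bases were clipped at the window, and reads and densities are of whole islands. Islands sharing at least 1 base were merged genome-wide, and a region called in 1 list only got no ratio. In regions called in both, the reads of each list were those of its own islands. Windows of 100, 300 and 50 kb tiled chromosomes 1 to 19. The 50 kb windows, the distances, the stretches without NPC calls and the split at 4000 bp were chosen after seeing the data. No mm9 annotation was used here. Pathway genes beyond the members and marker genes fixed for use with one were therefore not analysed here. RefSeq on GRCm38.p6 gave gene neighbours and promoters, the latter for 6 of 8 members, without Msi1 and Cdh2. Overlap and ratio code was tested on simulated data and against bedtools 2.31.1. Work used Python 3.11.15, numpy 2.4.6, pandas 2.3.3, scipy 1.17.1 and matplotlib 3.10.9.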

Additional observations from a re-analysis of the deposited data

How the results depend on the processing

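Other settings gave 44 values, of which 27 were within 1.5 times the reported count or inside the counting interval and 17 were not. With windows of 25 kb on either side, regions numbered 7 in ESC only and 1 in NPC only, and covered bases in ESC were 1.45 times those in NPC, against 0.901 in the reported windows. With windows of 100 kb, 1 locus had islands in ESC only and 7 in both, and regions numbered 29 in ESC only, 13 in NPC only and 15 in both. That 1 locus was Cdh2, whose span was left unchanged in both settings. With islands at or above the median reads of their list, regions numbered 10 in ESC only and 4 in both, Vim lost its NPC island, and Fabp7 and Cdh2 lost all islands.

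The summed log2 in member regions called in both lists, -0.33 as reported, was 0.086 when scaled by the reads in all such regions and 0.17 when centred on their median. It was -0.71 by density scaled to island reads and -0.27 by density not scaled. Settings chosen after seeing the data gave 0.17 without the Notch1 locus and -0.49 without the Hes5 locus. The log2 density of member islands was -0.32 as deposited and -0.76 after scaling to island reads. The cause of these shifts was not tested. With 1 library per cell type none could be left out, and with depth outside islands unknown, stretches without a call cannot be read as free of the mark. No paired analysis was possible because each group has 1 sample.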
